A study of Mus musculus with 6 samples.

Results

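Glycolysis enzymes and other target genes of the hypoxia-inducible factors (HIFs) were followed in mouse embryonic fibroblasts, connective tissue cells grown from embryos, with and without p27 given by lentivirus. The set held 39 genes out of 24062 gene symbols in the deposited table. They split into 21 genes of glycolysis, counting glucose uptake and lactate export, and 18 other HIF targets. The genes were taken by symbol and chosen from earlier results of the same p27OE against EV control contrast, so their fold changes describe the set and are not used to support anything about it. All 39 symbols were in the table and all 39 passed the filter on low counts.

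In all, 2 groups of 3 libraries were compared. The p27OE cells carried p27, a cyclin-dependent kinase inhibitor encoded by Cdkn1b, delivered by lentivirus. The other cells were labelled EV control, an abbreviation that the labels do not spell out. Both groups were C57BL/6 cells labelled day 10, with embryo as the tissue. The p27OE titles and the treatment protocol call those cells senescent, while the series' design text calls the cells non-senescent. A dataset tag stands in the titles of the EV control libraries alone, and shared preparation or sequencing of both groups is not stated. Nothing in the labels says that libraries came from separate embryos or cultures, so the p-values measure the spread between these libraries alone. How much of that spread is technical is not stated, and RNA of Y-linked genes, given below, differed within both groups.

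Glycolysis splits glucose into pyruvate in a chain of enzymes, and lactate dehydrogenase turns pyruvate into lactate that leaves the cell through a transporter. HIFs are transcription factors made of an oxygen-labile alpha subunit and a stable beta subunit. Prolyl hydroxylases mark the alpha subunit for destruction when oxygen is plentiful, and in low oxygen it persists and switches on glycolysis genes and genes of mitochondrial turnover, matrix building and blood vessel growth.

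Both gene groups took a smaller share of all counts in p27OE than in EV control cells. The glycolysis genes together held 0.912, 1.15 and 1.20% of the counts in p27OE 1, 2 and 3, against 1.38, 1.77 and 1.62% in EV control 1, 2 and 3. The other HIF targets held 0.174, 0.202 and 0.193% in p27OE 1, 2 and 3, against 0.293, 0.292 and 0.260% in EV control 1, 2 and 3. No p27OE library reached the lowest EV control library in either sum. Genes of high level weigh most in these sums, such as Pkm and Gapdh in glycolysis and P4ha1 among the other HIF targets. The glycolysis share averaged 1.09 ± 0.153% in p27OE and 1.59 ± 0.199% in EV control (SD, n = 3 each), a ratio of 0.683. The share of the other HIF targets averaged 0.190 ± 0.0145% in p27OE and 0.281 ± 0.0188% in EV control (SD, n = 3 each), a ratio of 0.675. In bulk samples, fewer cells of a type and less RNA per cell cannot be told apart.

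**Figure D1:**
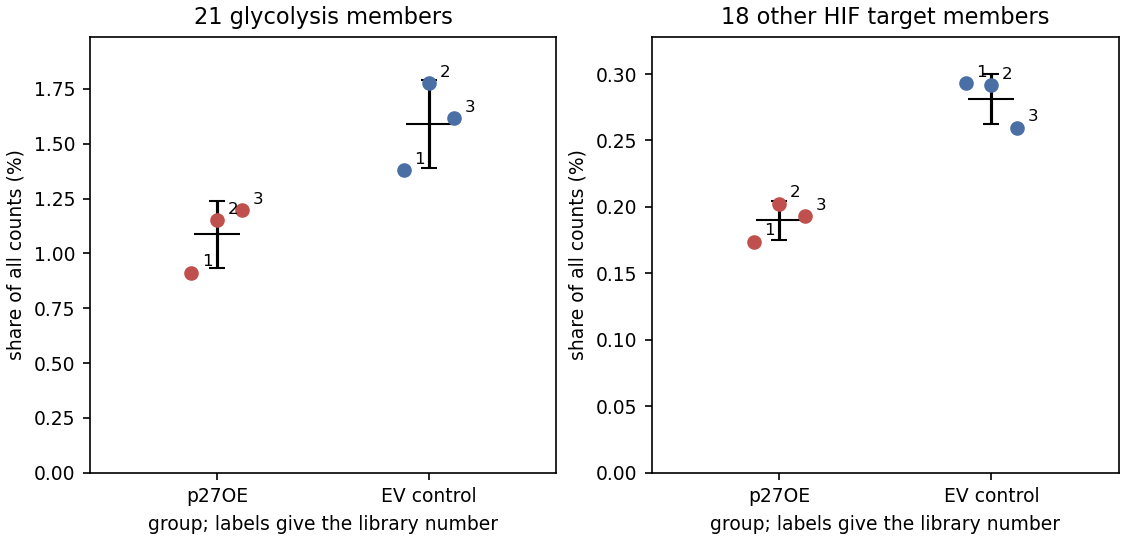
Share of all counts (%) held by the 21 glycolysis members (left) and the 18 other HIF target members (right) in each library, with p27OE left of EV control. Numbers are library numbers, horizontal bars are means and vertical bars are SD (n = 3); in both panels the highest p27OE library (1.20% and 0.202%) lies below the lowest EV control library (1.38% and 0.260%).

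Gene by gene, 38 of the 39 fitted log2 fold changes (p27OE over EV control) were below 0, whereas 48.2% of all 13990 tested genes were. The median was -0.53 over the 21 glycolysis genes, with a range of -1.63 to 0.21. It was -0.64 over the 18 other HIF targets, with a range of -1.49 to -0.06. Over all tested genes the median was 0.01. Calls rest on edgeR's quasi-likelihood test, at an adjusted p below 0.05 after adjustment over all tested genes. Of the HIF targets 5 were called, Pdk1, Bnip3, Mif, Stc2 and Fam162a, and all 5 fell in p27OE, while 2.61% of all tested genes were called in either direction and 0.843% were called lower. Of the 21 glycolysis genes, edgeR and limma-voom called 0, while limma-voom called 3% of all tested genes. An unadjusted edgeR p under 0.05 was found for 12 of the 21, beside 3634 of all 13990 tested genes. DESeq2 called 12 of the 21, beside 16.6% of all tested genes. Both counts of 12 include Pfkm, which lay higher in p27OE. Without EV control 1, edgeR called 7 glycolysis genes and 7 other HIF targets, beside 12.9% of all genes tested then. Without any other single library it called 0 of either, and at most 0.014% of all genes tested then. Because the set was chosen from this contrast, these counts are given without a reading.

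Groups that did not overlap were counted apart from the test. For 27 of the 39 genes every p27OE library lay below every EV control library, 13 in glycolysis and 14 among the other HIF targets, while 16.5% of all tested genes did so. The 13 include Eno1, whose values are uncertain and which had 12 counts in both p27OE 3 and EV control 1. The gene Pfkm had every p27OE library above every EV control library, as did 16.8% of all tested genes. The other 11 genes overlapped between the groups.

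**Figure D2:**
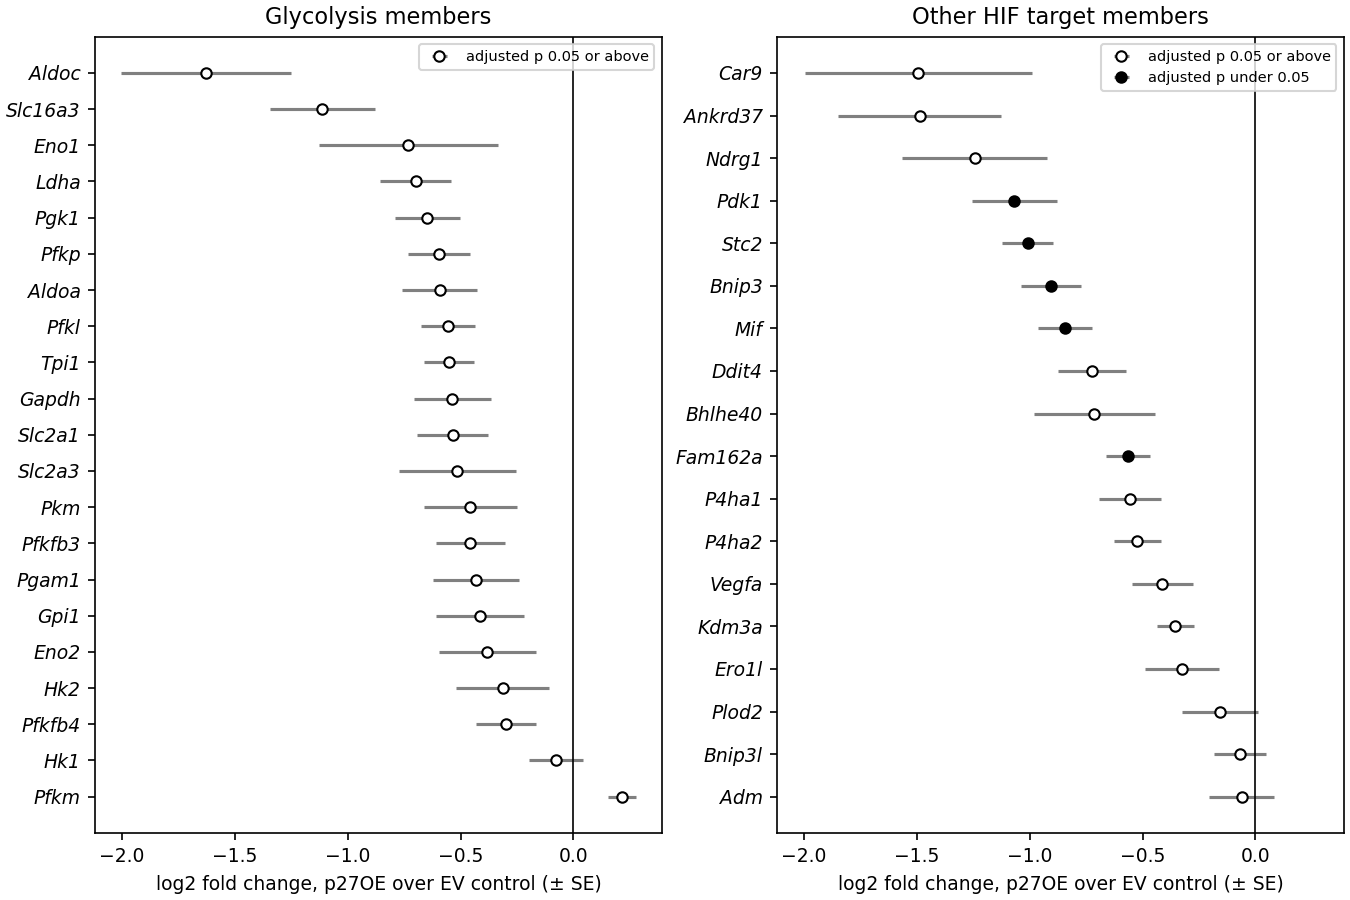
Log2 fold change of each member, p27OE over EV control, from the edgeR fit, with bars for ± SE (3 libraries a group) and filled points for an adjusted p under 0.05. The points run from -1.63 (Aldoc) to 0.21 (Pfkm) in glycolysis and from -1.49 (Car9) to -0.06 (Adm) among the other HIF targets, and the 5 filled points are all below 0.

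The HIF core motif, ACGTG, was searched on both strands of the promoter windows that RefSeq gives on GRCm38.p6, which run from 250 bases before to 50 bases after each start. Overlapping matches on the 2 strands were counted once, so the palindrome CACGTG, which other factors also bind, counts as 1 match. The table matched 34 of the 39 genes with 50 windows, Ero1l through its synonym Ero1a, and held none for Slc2a3, Bnip3l, Plod2, Ndrg1 and Bhlhe40. At least 1 match stood in a window of 23 of the 34 genes (67.6%), 13 of 20 in glycolysis (65.0%) and 10 of 14 among the other HIF targets (71.4%). The share was 28.9% among the 11012 genes of the table that were also tested and 21.8% among all 27025 genes of the table. Counted per window, 26 of 50 held it (52.0%), against 24.9% of windows of tested genes and 19.6% of all windows. In 9 of the 34 genes (26.5%) a single window held 2 or more matches, against 4.94% of tested genes and 3.06% of all genes. CACGTG stood in 4 of the 34 genes (11.8%), against 11.6% of tested genes. The members' windows averaged 62.8% G and C, against 60.9% for tested genes and 53.6% for all genes. HIF targets are recognised in the literature in part by such motifs, so the list and the motif are not independent. A match describes letters and not a bound site. Of single windows, 1 (Ldha) held 3 matches and 8 held 2, those of Hk1, Hk2, Pfkm, Pgk1, Pkm, Slc16a3, P4ha2 and Ankrd37. The Ldha window and 3 of those 8, chosen for the most matches when GCGTG is also counted, are printed 5′ to 3′ on the strand of the gene, with each match in capitals, including both strands' letters where they overlap. They belong to Ldha (chr7:46845554-46845853, plus strand), Hk1 (chr10:62340372-62340671, minus strand), P4ha2 (chr11:54100674-54100973, plus strand) and Ankrd37 (chr8:45999801-46000100, minus strand).
Ldha: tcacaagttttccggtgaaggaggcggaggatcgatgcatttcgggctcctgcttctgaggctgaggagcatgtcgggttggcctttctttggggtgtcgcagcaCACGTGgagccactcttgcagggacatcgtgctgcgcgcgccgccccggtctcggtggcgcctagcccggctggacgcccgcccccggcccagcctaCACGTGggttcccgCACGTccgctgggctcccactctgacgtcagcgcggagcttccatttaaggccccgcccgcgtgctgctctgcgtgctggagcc
Hk1: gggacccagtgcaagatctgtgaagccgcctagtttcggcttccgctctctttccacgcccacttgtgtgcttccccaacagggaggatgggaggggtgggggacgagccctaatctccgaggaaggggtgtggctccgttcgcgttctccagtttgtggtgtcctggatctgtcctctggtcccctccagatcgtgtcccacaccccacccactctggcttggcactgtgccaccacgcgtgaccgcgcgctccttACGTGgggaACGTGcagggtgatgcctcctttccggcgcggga
P4ha2: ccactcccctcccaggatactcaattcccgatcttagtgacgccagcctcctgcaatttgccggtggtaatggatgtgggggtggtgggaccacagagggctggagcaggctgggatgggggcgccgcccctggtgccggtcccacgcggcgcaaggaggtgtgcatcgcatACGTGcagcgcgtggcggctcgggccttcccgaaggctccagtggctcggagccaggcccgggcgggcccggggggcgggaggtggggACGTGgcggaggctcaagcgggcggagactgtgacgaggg
Ankrd37: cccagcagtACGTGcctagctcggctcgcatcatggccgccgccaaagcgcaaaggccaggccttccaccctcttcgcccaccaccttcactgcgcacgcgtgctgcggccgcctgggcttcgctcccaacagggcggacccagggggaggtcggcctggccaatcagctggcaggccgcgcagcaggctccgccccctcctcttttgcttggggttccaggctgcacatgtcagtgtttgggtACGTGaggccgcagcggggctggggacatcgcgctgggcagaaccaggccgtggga
The Ldha window held 3 matches, 2 of them within CACGTG, starting at -145, -48 and -34 from the start site. The Hk1 window, at a start inside the gene, held 2 matches at 8 and 17 bases after the start. In the P4ha2 window the 2 matches began at -78 and 11, and in the Ankrd37 window at -241 and -6. In their RNA, Ldha, P4ha2 and Ankrd37 lay lower in every p27OE library than in every EV control library, as did 16.5% of all tested genes, and Hk1 overlapped. Of the 5 called genes, Bnip3, Mif and Fam162a held the motif in this window, and the windows of Pdk1 and Stc2 held no such letters. Pfkl, Pfkp and Tpi1, also without a match, lay lower in every p27OE library too, while Pfkm, with 2 matches in 1 window, lay higher. Whether the motif goes with the fold change was not tested. If GCGTG is admitted as well, the shares become 91.2% of the 34 genes, 66.6% of tested genes and 46.7% of all genes in the table.

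**Figure D3:**
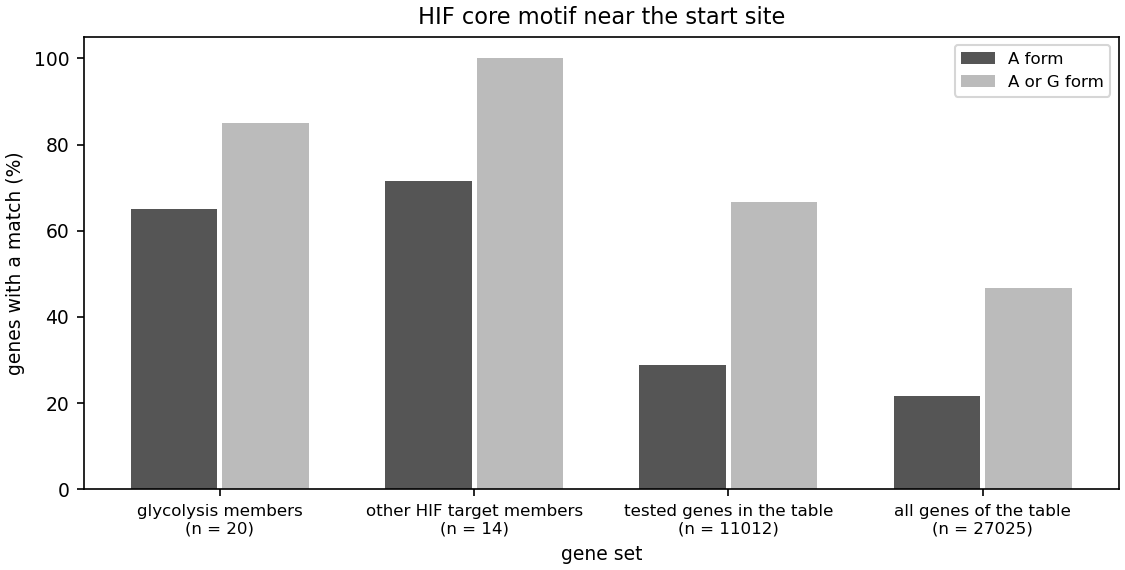
Share of genes (%) with at least 1 match of the HIF core motif in a RefSeq promoter window, for the A form alone (dark) and either the A or the G form (light). The A form stood in 65.0% of 20 glycolysis members and 71.4% of 14 other HIF targets, against 28.9% of the tested genes and 21.8% of all genes of the table.

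At glucose uptake and the first steps, Slc2a1, the main glucose transporter of fibroblasts, was lower in every p27OE library, at 131, 162 and 190 CPM (a gene's counts relative to the size of its library, scaled by TMM factors) in p27OE 1, 2 and 3, against 209, 263 and 229 CPM in EV control 1, 2 and 3. Its groups did not overlap, and it lay at -0.53 ± 0.16 on the log2 fold scale (SE; edgeR adjusted p = 0.0972). Slc2a3, a high-affinity glucose transporter, had 5.95, 8.22 and 12.3 CPM in p27OE and 12.4, 13.7 and 11.7 CPM in EV control, where p27OE 3 lay above EV control 3, and its log2 fold change was -0.51 ± 0.26. Per kilobase of exon, Slc2a1 made up 97.5 ± 0.457% of the pair's level in p27OE and 97.4 ± 0.202% in EV control (SD, n = 3 each). Exon length, here and below, joins all annotated exons of a gene, 3506 bases for Slc2a1 and 7245 for Slc2a3. It need not match the transcripts that the cells made, so shares within a family are not measured proportions of transcripts. Of the hexokinases, which trap glucose in the cell, Hk1 had 104, 125 and 143 CPM in p27OE and 130.2, 132 and 130.0 CPM in EV control. Its groups overlapped, with p27OE 3 the highest and p27OE 1 the lowest of all libraries, and its log2 fold change was -0.08 ± 0.12. Hk2, the inducible hexokinase, had 40.0, 57.4 and 68.4 CPM in p27OE and 58.8, 77.7 and 69.5 CPM in EV control, again with overlap and a log2 fold change of -0.31 ± 0.21. Gpi1, which turns glucose phosphate into fructose phosphate, ran from 377 to 599 CPM in p27OE and from 556 to 749 CPM in EV control, with overlap and a log2 fold change of -0.41 ± 0.19.

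Phosphofructokinase is the committed step, and its 3 subunit genes did not all lie on the same side of 0. Pfkl, the liver-type subunit, had 214, 265 and 269 CPM in p27OE 1, 2 and 3 and 333, 397 and 369 CPM in EV control 1, 2 and 3. Pfkp, the platelet-type subunit, had 49.2, 61.4 and 68.9 CPM in p27OE and 83.6, 99.3 and 88.2 CPM in EV control. Pfkm, the muscle-type subunit, had 50.2, 52.2 and 51.8 CPM in p27OE and 44.7, 42.5 and 45.7 CPM in EV control. Pfkl and Pfkp lay lower in every p27OE library and Pfkm lay higher in every p27OE library. The log2 fold changes were -0.56 ± 0.12 for Pfkl, -0.60 ± 0.14 for Pfkp and 0.21 ± 0.06 for Pfkm (SE; edgeR adjusted p = 0.0622, 0.0667 and 0.0966). Per kilobase of exon, Pfkm made up 27.1 ± 2.24% of the 3 subunits in p27OE and 17.8 ± 1.66% in EV control, and Pfkl 65.2 ± 1.75% in p27OE and 73.2 ± 1.47% in EV control (SD, n = 3 each). The Pfkm share ran from 25.4 to 29.6% in p27OE and from 15.99 to 19.3% in EV control, without overlap. The size of these shares depends on the joined exon lengths, 6675 bases for Pfkl, 3340 for Pfkm and 13401 for Pfkp. Pfkfb3 and Pfkfb4, which make and remove the sugar phosphate that activates phosphofructokinase, both lay lower in every p27OE library. Pfkfb3 ran from 44.9 to 61.6 CPM in p27OE and from 66.1 to 85.3 CPM in EV control, and Pfkfb4 had 6.82, 7.44 and 7.81 CPM in p27OE and 8.38, 10.2 and 8.54 CPM in EV control.

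The middle of the pathway held some of the highest levels of the set. Aldoa, the main aldolase, had 807, 1043 and 1159 CPM in p27OE 1, 2 and 3 and 1301, 1686 and 1553 CPM in EV control 1, 2 and 3, without overlap. Aldoc, the brain-type aldolase, had 1.45, 1.07 and 0.649 CPM in p27OE and 4.48, 2.60 and 2.77 CPM in EV control. These Aldoc values rest on 67, 52 and 27 counts in p27OE and 179, 157 and 126 counts in EV control, and its groups did not overlap. At -1.63 ± 0.38 (SE; edgeR adjusted p = 0.0669) its log2 fold change was the lowest of the set. Aldoc made up only 0.100 ± 0.0556% of the aldolase level per kilobase in p27OE and 0.201 ± 0.0918% in EV control (SD, n = 3 each). Tpi1, which interconverts the triose phosphates, ran from 600 to 706 CPM in p27OE and from 890 to 1075 CPM in EV control. Gapdh, the oxidising step, ran from 1747 to 2484 CPM in p27OE and from 2645 to 3524 CPM in EV control, and Pgk1, the first ATP-making kinase of the pathway, from 839 to 1134 CPM in p27OE and from 1430 to 1763 CPM in EV control. All of Tpi1, Gapdh and Pgk1 had groups without overlap, with log2 fold changes of -0.55 ± 0.11, -0.54 ± 0.17 and -0.65 ± 0.14 (SE; edgeR adjusted p = 0.0545, 0.113 and 0.0637). Gapdh is often used as a reference transcript in other assays.

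The last steps ended with lactate. Pgam1, the phosphoglycerate mutase, ran from 628 to 966 CPM in p27OE and from 897 to 1250 CPM in EV control, with overlap. Pkm, the pyruvate kinase, ran from 1827 to 2835 CPM in p27OE and from 2587 to 3712 CPM in EV control, also with overlap. Ldha, which makes lactate and whose promoter window is printed above, ran from 1194 to 1551 CPM in p27OE and from 1896 to 2582 CPM in EV control without overlap. The log2 difference for Ldha was -0.70 ± 0.16 (SE; edgeR adjusted p = 0.0641). Slc16a3, the exporter of lactate (chr11:120948480-120960868, plus strand, GRCm38), had 138, 218 and 219 CPM in p27OE 1, 2 and 3 and 322, 495 and 426 CPM in EV control 1, 2 and 3. The highest p27OE library lay below the lowest EV control library, and the fitted level was 2.16-fold lower in p27OE, or -1.11 ± 0.23 as log2 (SE; edgeR adjusted p = 0.0586). Of the glycolysis genes above 10 CPM on average in EV control, Slc16a3 had the lowest fold change.

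Enolase could not be read from its main symbol. Eno1, the general enolase (chr4:150236721-150248879, plus strand, GRCm38), had only 9, 12 and 12 counts in p27OE 1, 2 and 3 and 12, 22 and 25 counts in EV control 1, 2 and 3. These counts gave 0.195, 0.246 and 0.288 CPM in p27OE and 0.300, 0.364 and 0.549 CPM in EV control. Its near-identical copy Eno1b, which GENCODE tags as a retrogene, had 540, 757 and 704 counts in p27OE and 805, 1576 and 1258 counts in EV control. The sources used here do not state how reads that match more than 1 place were counted, so the Eno1 values are uncertain and its low rank is not a level of the enzyme. Eno2, the neuronal enolase, had 9.15, 10.8 and 8.39 CPM in p27OE and 16.3, 9.79 and 11.0 CPM in EV control, with overlap. Of the 39 genes 7 have a pseudogene named after them in GENCODE M21, 5 in glycolysis (Aldoa, Gapdh, Pgk1, Pgam1, Ldha) and 2 among the other HIF targets (Bnip3l, Mif), and their counts may share reads with those copies.

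**Figure D4:**
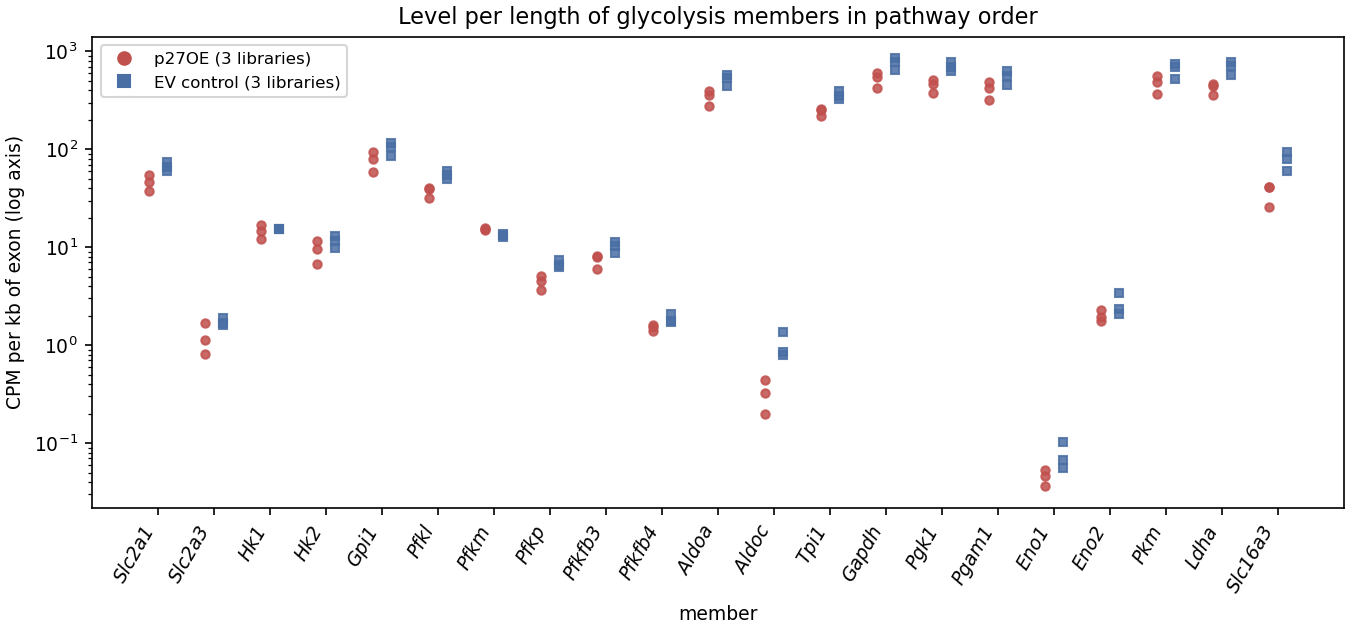
Level of each glycolysis member in CPM per kilobase of exon (log axis), in pathway order, with each of the 3 p27OE libraries (red circles) left of each of the 3 EV control libraries (blue squares). Pfkm is the 1 gene with every p27OE library above every EV control library, and Eno1 lies at the bottom with 9 to 25 counts a library.

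Levels can be compared between genes only per length, and the order of genes here depends on the joined exon lengths used. Per kilobase of exon, Gapdh had the highest level in both groups, 524 ± 91.8 CPM per kilobase in p27OE and 760 ± 109 in EV control (SD, n = 3 each). Pkm, Pgk1 and Ldha took the next 3 places in both groups in a differing order, with 474, 449 and 424 CPM per kilobase in p27OE and 651, 703 and 688 in EV control. Neighbours among these 4 genes differed by less than the spread between libraries. Mif, at 303 ± 30.6 in p27OE and 543 ± 63.0 in EV control, was the highest of the other HIF targets.

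The other HIF targets held the called genes, described by role. Pdk1 (chr2:71873224-71903858, plus strand, GRCm38) is the kinase that switches off pyruvate dehydrogenase and keeps pyruvate out of the mitochondria. It had 45.3, 50.03 and 37.1 CPM in p27OE 1, 2 and 3 and 116, 87.1 and 74.8 CPM in EV control 1, 2 and 3. Its groups were well apart, and it fell by 1.07 ± 0.19 on the log2 scale (SE; edgeR adjusted p = 0.0471). That call was lost with upper-quartile scaling (edgeR adjusted p = 0.0508) and with total counts alone (edgeR adjusted p = 0.0554).

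Bnip3 and Bnip3l are receptors on the outer mitochondrial membrane for mitophagy. Bnip3 (chr7:138890836-138909519, minus strand, GRCm38) had 87.2, 103 and 99.6 CPM in p27OE and 200.4, 192 and 150 CPM in EV control. It fell by 0.91 ± 0.13 on the log2 scale (SE; edgeR adjusted p = 0.0348), and its groups did not overlap. Bnip3l had 84.5, 87.4 and 96.2 CPM in p27OE and 107, 92.1 and 81.6 CPM in EV control, a log2 fold change of -0.07 ± 0.11 with overlap. Per kilobase of exon, Bnip3 was 64.8 ± 1.68% of the pair in p27OE and 76.6 ± 1.23% in EV control (SD, n = 3 each). Fam162a, a mitochondrial protein linked to hypoxic cell death (chr16:36043761-36071594, minus strand), had 111, 135 and 128 CPM in p27OE and 191.2, 190.8 and 171 CPM in EV control. It fell by 0.56 ± 0.10 on the log2 scale (SE; edgeR adjusted p = 0.0462).

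Secreted and signalling products came next. Mif, a secreted cytokine (chr10:75859353-75860240, minus strand), had 209, 252 and 217 CPM in p27OE 1, 2 and 3 and 355, 449 and 410 CPM in EV control 1, 2 and 3. It fell by 0.84 ± 0.12 on the log2 scale (SE; edgeR adjusted p = 0.0348). Stc2, a secreted glycoprotein (chr11:31357307-31370074, minus strand), had 14.7, 18.5 and 17.4 CPM in p27OE and 35.95, 34.9 and 31.2 CPM in EV control. It fell by 1.01 ± 0.11 on the log2 scale (SE; edgeR adjusted p = 0.029), and every p27OE library of both genes lay below every EV control library. Vegfa, the main growth factor for blood vessels, had 107, 136 and 147 CPM in p27OE and 164.6, 189 and 164.6 CPM in EV control, without overlap and at -0.41 ± 0.13 on the log2 scale (SE; edgeR adjusted p = 0.118). Adm, the vasodilator peptide adrenomedullin, had 59.5, 65.6 and 70.7 CPM in p27OE and 54.4, 71.5 and 78.2 CPM in EV control, so p27OE and EV control overlapped. Leaving out any single library other than EV control 1 ended the call of all 5 genes, with edgeR adjusted p between 0.0707 and 0.221.

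The lowest fold changes among the other HIF targets belonged to genes of low level. Car9, a carbonic anhydrase that regulates pH, had 4.78, 4.33 and 4.42 CPM in p27OE 1, 2 and 3 and 23.4, 9.16 and 5.66 CPM in EV control 1, 2 and 3, where EV control 1 lay far above the others. The log2 difference for Car9 was -1.49 ± 0.50 (SE; edgeR adjusted p = 0.127), and without EV control 1 it was -0.73 (edgeR adjusted p = 0.0897) and no longer the lowest of the group. Ankrd37, an ankyrin repeat protein, had 1.97, 3.40 and 5.55 CPM in p27OE and 9.55, 11.5 and 9.50 CPM in EV control, a log2 difference of -1.49 ± 0.36 (SE; edgeR adjusted p = 0.0712). Ndrg1, a stress-responsive gene, had 19.4, 18.4 and 11.1 CPM in p27OE and 55.6, 32.6 and 28.1 CPM in EV control, a log2 difference of -1.24 ± 0.32 (SE; edgeR adjusted p = 0.0769). In all 3 genes no p27OE library reached the lowest EV control library.

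Genes of matrix building followed. P4ha1 and P4ha2, the catalytic chains of collagen prolyl hydroxylase, had 332, 423 and 462 CPM and 238, 248.9 and 232 CPM in p27OE 1, 2 and 3. In EV control 1, 2 and 3, P4ha1 had 573, 637 and 578 CPM and P4ha2 had 388, 341 and 306 CPM. Both lay lower in every p27OE library, with log2 fold changes of -0.56 ± 0.14 and -0.52 ± 0.10 (SE; edgeR adjusted p = 0.0713 and 0.0532). Plod2, a lysyl hydroxylase for collagen, had 118, 145 and 186 CPM in p27OE and 153, 180 and 167 CPM in EV control, with p27OE 3 the highest of all. Ddit4, a brake on mTOR signalling, ran from 71.4 to 90.9 CPM in p27OE and from 116 to 161 CPM in EV control. Kdm3a, a histone demethylase, ran from 42.9 to 49.7 CPM in p27OE and from 55.5 to 62.1 CPM in EV control, and Bhlhe40, a transcriptional repressor, from 33.3 to 66.6 CPM in p27OE and from 78.0 to 104 CPM in EV control. Ddit4, Kdm3a and Bhlhe40 had groups without overlap. Ero1l, an oxidase of the endoplasmic reticulum, ran from 82.5 to 126 CPM in p27OE and from 117 to 141 CPM in EV control and overlapped.

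**Figure D5:**
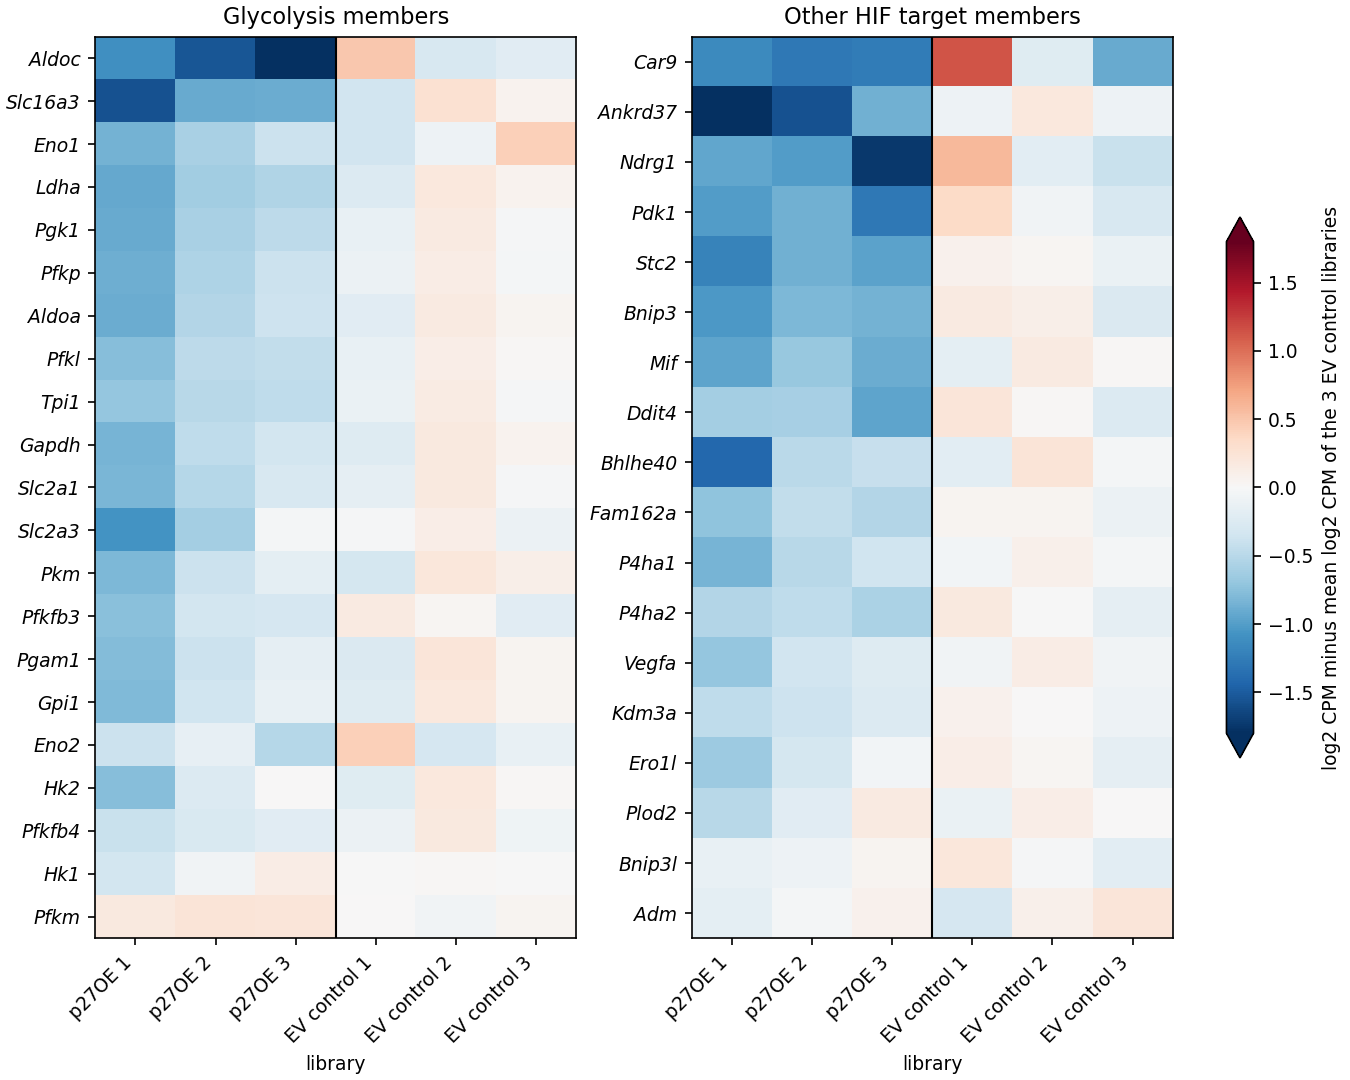
Log2 CPM of each member in each library minus the mean log2 CPM of the 3 EV control libraries (blue is lower, red is higher; 0.05 CPM was added before the log). Glycolysis members are on the left and the other HIF targets on the right, ordered by fold change from -1.63 and -1.49 at the top, with p27OE libraries left of EV control libraries.

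The neighbouring pathway genes were listed with these results known. Of 20 other glycolysis genes, 19 were in the table and 14 were tested. In edgeR 0 of them were called, 4 had an unadjusted p under 0.05, limma-voom called 0 and DESeq2 called 3. Of all 13990 tested genes, 3634 had such a p, and edgeR, limma-voom and DESeq2 called 2.61%, 3% and 16.6%. The 14 genes lay 8 above and 6 below 0, with a median log2 fold change of 0.09. Of the 4 with an unadjusted p under 0.05, 2 lay lower and 2 higher in every p27OE library, beside 16.5% and 16.8% of all tested genes. These 4 included Slc16a1, another lactate transporter, at -0.71 ± 0.16, and Pfkfb1, a relative of Pfkfb3, at -0.56 ± 0.18 (SE; edgeR adjusted p = 0.0675 and 0.112). The other two, named after their values were seen, were Ldhb, the other main lactate dehydrogenase subunit, at 0.44 ± 0.14, and Gpd1, a glycerol phosphate dehydrogenase, at 1.04 ± 0.36 (SE; edgeR adjusted p = 0.113 and 0.135). Ldhb had 48.8, 40.8 and 36.4 CPM in p27OE and 35.5, 28.1 and 29.1 CPM in EV control, on the other side of 0 from Ldha. Of 24 further HIF targets, 23 were tested, with 8 above and 15 below 0 and a median of -0.18. In edgeR 2 were called, both lower, beside 0.843% of all tested genes called lower, 11 had an unadjusted p under 0.05, and DESeq2 called 7. No p27OE library overlapped the EV control libraries in 8 genes that lay lower and 3 that lay higher, beside 16.5% and 16.8% of all tested genes. The called genes were Egln1 and Egln3, the oxygen-sensing prolyl hydroxylases that are themselves HIF targets. Egln1 had 83.9, 86.1 and 87.2 CPM in p27OE 1, 2 and 3 and 127, 131 and 117 CPM in EV control 1, 2 and 3, and Egln3 had 14.7, 15.3 and 17.3 CPM in p27OE and 46.2, 50.4 and 35.3 CPM in EV control. Egln1 fell by 0.55 ± 0.07 and Egln3 by 1.48 ± 0.15 on the log2 scale (SE; edgeR adjusted p = 0.0303 and 0.028). Of 10 oxygen sensors and HIF subunits, 9 were tested, the called genes were these same 2, and the median was -0.04. Epas1, an alpha subunit, lay at 1.22 ± 0.34 and Hif1an, an asparaginyl hydroxylase that inhibits HIF, at 0.27 ± 0.07 (SE; edgeR adjusted p = 0.0889 and 0.0713). Hif1a, the best-known alpha subunit, named here after its values were seen, lay at -0.35 ± 0.12 (SE; edgeR adjusted p = 0.13). These are RNA levels, and HIF alpha is controlled largely at the protein level, which was not measured here.

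The libraries differed in depth and in other respects that move with the groups or within them. Totals ran from 43621464 to 48014367 counts in p27OE and from 39183624 to 61219345 in EV control. Cdkn1b, the gene delivered, had 167, 232 and 337 CPM in p27OE 1, 2 and 3 and 43.9, 31.5 and 32.3 CPM in EV control 1, 2 and 3, a rise of 2.77 ± 0.29 on the log2 scale (SE; edgeR adjusted p = 0.028). All 10 fibroblast markers were in the table, summing to 45521 to 47801 CPM in p27OE and 41155 to 59331 CPM in EV control. Markers of high level set that sum, and single markers differed more between libraries. Dcn had 92.7, 25.2 and 8.43 CPM in p27OE 1, 2 and 3 and 76.1, 11.2 and 8.27 CPM in EV control 1, 2 and 3. Lum had 85.4, 24.8 and 4.18 CPM in p27OE and 77.6, 10.2 and 8.71 CPM in EV control. The macrophage markers, 14 of 15 in the table, summed to 20.4, 30.3 and 37.0 CPM in p27OE and 97.4, 24.2 and 19.2 CPM in EV control, so that EV control 1 was far the highest in these. Among the EV control libraries, EV control 1 was also the highest for 3 of 21 glycolysis genes and 11 of 18 other HIF targets, 4 of the 5 called genes among them (Pdk1, Bnip3, Stc2 and Fam162a), beside 45.3% of all tested genes. The endothelial markers, 8 of which 1 was at 0, summed to 6.46 to 8.14 CPM in p27OE and 4.48 to 5.97 CPM in EV control, and the 7 epithelial markers to 3.98 to 8.24 CPM in p27OE and 2.0 to 4.52 CPM in EV control. Of 7 erythroid markers 4 were at 0. Of all 13990 tested genes, 3634 had an unadjusted edgeR p under 0.05 and DESeq2 called 16.6%. Of the macrophage, endothelial, epithelial and erythroid markers 21 were tested. Among these markers edgeR called 0, 2 had such a p, limma-voom called 0 and DESeq2 called 2. Of the 10 fibroblast markers, edgeR and limma-voom called 0, 1 had such a p and DESeq2 called 1. The part of all these markers in the results was not tested.

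Y-linked transcripts differed between libraries within both groups. The 4 Y-linked genes Ddx3y, Eif2s3y, Kdm5d and Uty summed to 1.95, 57.1 and 137 CPM in p27OE 1, 2 and 3 and to 0.125, 126 and 124 CPM in EV control 1, 2 and 3. Libraries with little and with much Y-linked RNA were therefore compared apart, with p27OE 2 in neither. Between the low libraries, p27OE 1 and EV control 1, the median log2 difference was -0.64 in glycolysis and -0.78 in the other HIF targets. Between the high libraries, p27OE 3 and EV control 2 and 3, it was -0.37 in glycolysis and -0.50 in the other HIF targets, and over all tested genes the medians were -0.00 and 0.03. Members below 0 numbered 37 of 39 between the low libraries and 34 of 39 between the high ones, beside 7032 and 6687 of all 13990 tested genes. Both comparisons reuse libraries of the contrast that chose the genes, so they describe the set. In 15 of 21 glycolysis genes (71.4%) library 1 was the lowest within each group, which held for 27.2% of all tested genes, and in 6 of 18 other HIF targets (33.3%). Whether the Y-linked level or another property of libraries 1 goes with this was not tested.

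A model with the Y-linked level as a further term gave smaller standard errors and more calls. In that edgeR fit 28 of the 39 genes were called lower in p27OE, 14 in glycolysis and 14 among the other HIF targets, beside 16% of all tested genes. Pfkm alone was called higher, beside 18% of all tested genes. Ldha fell by 0.64 ± 0.06 and Slc16a3 by 1.04 ± 0.12, and Pfkm rose by 0.22 ± 0.06 on the log2 scale (SE; edgeR adjusted p = 0.000861, 0.00144 and 0.0231). The genes not called in that fit were Slc2a3, Hk1, Hk2, Pfkfb4, Eno1 and Eno2 in glycolysis and Bnip3l, Plod2, Adm and Ero1l among the other HIF targets. The term was chosen with the Y-linked levels known, and the same contrast chose the genes, so these counts too describe the set.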

How the data were processed

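RNA was measured by sequencing in 6 libraries, with extraction on RNeasy Micro columns and the TruSeq RNA kit per the labels' protocols. The authors deposited raw counts, whole numbers of reads for each gene symbol with no scaling. The submitters' processing notes list featureCounts 1.4.6 and Subread, TopHat2 2.0.14 with Bowtie2 2.2.6, and the mm10 build. Strand setting, annotation and filters are not given in the sources used here, so overlapping and antisense genes may share counts. Counts were scaled by TMM, filtered with filterByExpr to 13990 genes and tested in edgeR 4.0.16 (two-sided glmQLFTest on a robust glmQLFit) under R 4.3.3, with the Benjamini-Hochberg method over all tested genes and a threshold of 0.05. CPM was computed from the counts. Coordinates and exon lengths, the union of all annotated exons of a gene, came from GENCODE M21 (GRCm38). A prior count of 2 was used for log2 CPM. Alternatives used limma 3.58.1 and DESeq2 1.42.0, and the fit was tested on simulated data.

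The members and lists were chosen with earlier results of these data known. CPM in every library is given for called members, the 3 with the largest and the 3 with the smallest fold changes in each list, paralogues and Vegfa. From other lists, called genes and at most 2 with the smallest p are named. A chi-square per gene between libraries of a group was 6.27 for EV control 2 against EV control 3 and 52.3 to 178 for the other pairs. No library was therefore an exact copy of another, but EV control 2 and 3 were much the closest pair. Whether EV control 2 and 3 came from separate cultures is not stated. Totals of 39183624 to 61219345 counts leave genes such as Eno1 and Aldoc imprecise.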

Additional observations from a re-analysis of the deposited data

How the results depend on the processing

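Over 16 alternative settings, 495 of 623 member fold changes kept their direction and side of the threshold, 95 became called, 27 lost their call and 6 turned positive. The 6 were Adm with a Y-linked term (0.0018) and without EV control 3 (0.049), Hk1 without p27OE 1 (0.015) and without both libraries numbered 1 (0.012), and Bnip3l without EV control 1 (0.024) and without both libraries numbered 1 (0.061), none of them called. Leaving out each library in turn gave -0.21 to 0.049 for Adm, -0.19 to 0.015 for Hk1 and -0.16 to 0.024 for Bnip3l. Of the 13990 genes, 365 were called. DESeq2 called 2321, a replicate block 2410, a Y-linked term 4761 and leaving out both libraries numbered 1 gave 2334. Upper-quartile scaling gave 328, total counts alone 313 and a filter of 1 CPM in 3 libraries 494. The 0 glycolysis genes called became 1 with upper-quartile scaling, with total counts alone and with a filter of 1 CPM in 3 libraries, 12 with DESeq2, 13 with the replicate block, 11 without both libraries numbered 1 and 15 when a Y-linked term was added. The 5 other HIF targets called became 13, 14, 11 and 14 under the last 4 of these. Leaving out each library in turn gave 1 to 1827 genes, 0 to 7 glycolysis genes and 0 to 7 other HIF targets called, where the 1827, 7 and 7 were without EV control 1. It gave medians of -0.63 to -0.42 in glycolysis and -0.72 to -0.52 in the other HIF targets. With the Y-linked term it gave 25 to 28 members called, and the share of all genes called in those fits was not counted. With all libraries that term gave 29 members, Pfkm among them as called higher, beside 34% of all tested genes. The motif share was 91.2% for either form and 35.3% on the sense strand alone, against 66.6% and 20.6% of tested genes. After each gene's group mean was subtracted from its log2 CPM, same-numbered libraries correlated across genes at 0.669, 0.043 and 0.495. By that measure p27OE 3 correlated best with EV control 2 (0.555), so same-numbered libraries share a number and the pairing is not established. The causes of these shifts were not tested. The 3 libraries a group, 1 of each group with almost no Y-linked RNA, limit the precision, and counts under 30 a library limit Eno1.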

Other observations

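Pyruvate can enter the mitochondria in place of leaving as lactate, and glucose can enter the pentose phosphate pathway. Of all 13990 tested genes, 3634 had an unadjusted edgeR p under 0.05, and edgeR, limma-voom and DESeq2 called 2.61%, 3% and 16.6%. Of 13 genes for pyruvate entry, 0 were called in edgeR, 2 had such a p, limma-voom called 0 and DESeq2 called 2. In that list 10 genes lay above 0, with a median log2 fold change of 0.06. Mpc2, a subunit of the mitochondrial pyruvate carrier, averaged 24.4 ± 0.438 CPM in p27OE and 20.6 ± 0.426 CPM in EV control (SD, n = 3 each). Pdk3, a relative of Pdk1, averaged 50.8 ± 3.602 CPM in p27OE and 62.1 ± 2.84 CPM in EV control (SD, n = 3 each). Of 7 pentose phosphate genes, 0 were called in edgeR, 1 had an unadjusted p under 0.05, limma-voom and DESeq2 each called 0, and 5 lay below 0 with a median log2 fold change of -0.20.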
